A study of Mus musculus with 10 samples.

Results

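The 6 rd10 libraries of a mouse retina RNA-seq experiment were split by the batch named in their sample labels, and the 3 libraries of batch 2 were set against the 3 of batch 1. They were 6 of the 10 libraries in all. The split used only the batch label, and all genes of the count table entered the comparison. The rd10 mouse (B6.CXB1-Pde6b rd10/J) is homozygous for a missense allele of Pde6b, which all 6 retinas shared, and the retinas came from female mice. The intravitreal injections, of 1 μL each, were given on P10 and P24, and the retina was taken on P36. Batch 1 held 2 retinas injected with DMSO vehicle (D1 and D2) and 1 injected with 20 μM halofantrine (H1). Batch 2 held 1 DMSO retina (D3) and 2 halofantrine retinas (H2 and H3). The 4 WT libraries (W1 to W4, DMSO, same days) were all of batch 1, so they serve only as a scale. What differed between the batches (litter, injection day, dissection or sequencing run) was not given in the labels, so these cannot be told apart from the batch. The library names also carried a set name, set2 for the rd10 libraries of batch 1, last_rd10 for H2 and H3, final_rd10 for D3, set1 for W1 to W3 and set1_5 for W4, with no meaning given. The WT libraries thus differed from the rd10 libraries of batch 1 in set name as well as genotype. Inside batch 2, treatment and set name therefore cannot be told apart. P-values measure only the spread between these libraries.

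Rods are the photoreceptors of dim light. In the dark, cyclic GMP keeps the channel formed by Cnga1 and Cngb1 open. Light acts through the G protein transducin (alpha subunit Gnat1) to activate the phosphodiesterase built from Pde6a, Pde6b and the inhibitory Pde6g, and the channel closes. Where the phosphodiesterase is defective, as in rd10, cyclic GMP builds up and the rods die over the first weeks after eye opening, while cones persist longer. Transcripts made mainly by rods therefore serve as a measure of the rods left in a whole retina. In bulk RNA, fewer rods and less RNA per rod cannot be told apart.

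Rod genes are switched on by the homeodomain factor CRX and the leucine zipper factor NRL. Of the 16 rod phototransduction genes, 10 had an entry in the RefSeq promoter table (GRCm38.p6). The 250 bases before the gene start were searched on both strands for TAATCC, the core of the CRX site, and for TGCTGA, the core of the NRL site. The first was present in 4 of the 10 promoters (40%) and in 6.38% of 27025 promoters of the same length. The second was present in 3 of 10 (30%) and in 15.8% of all promoters. Either was present in 6 of 10 (60%), against 21.2%. These matches are descriptions of the letters only. The following promoters are shown because they hold these letters nearest the start or hold both, and their genes are described below. Each is written in the direction of transcription and ends at the base before the start. Capitals mark a match, with GGATTA and TCAGCA as the reverse strand forms.
Cngb1, chr8:95306586-95306835, minus strand: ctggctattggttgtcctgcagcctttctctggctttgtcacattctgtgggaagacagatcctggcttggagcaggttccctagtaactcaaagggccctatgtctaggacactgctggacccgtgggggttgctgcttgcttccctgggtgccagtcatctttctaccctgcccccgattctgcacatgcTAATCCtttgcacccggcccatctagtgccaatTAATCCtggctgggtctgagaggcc
Gngt1, chr6:3993758-3994007, plus strand: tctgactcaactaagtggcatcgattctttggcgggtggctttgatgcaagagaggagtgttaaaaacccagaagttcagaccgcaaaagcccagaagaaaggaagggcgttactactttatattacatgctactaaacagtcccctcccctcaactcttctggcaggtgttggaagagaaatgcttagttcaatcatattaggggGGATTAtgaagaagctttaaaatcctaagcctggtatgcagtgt
Sag, chr1:87803430-87803679, plus strand: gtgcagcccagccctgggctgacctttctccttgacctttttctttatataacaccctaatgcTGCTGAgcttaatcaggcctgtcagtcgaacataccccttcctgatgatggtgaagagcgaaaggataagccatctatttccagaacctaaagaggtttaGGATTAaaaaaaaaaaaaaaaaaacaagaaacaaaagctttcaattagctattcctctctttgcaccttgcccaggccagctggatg
Pde6b, chr5:108388123-108388372, plus strand: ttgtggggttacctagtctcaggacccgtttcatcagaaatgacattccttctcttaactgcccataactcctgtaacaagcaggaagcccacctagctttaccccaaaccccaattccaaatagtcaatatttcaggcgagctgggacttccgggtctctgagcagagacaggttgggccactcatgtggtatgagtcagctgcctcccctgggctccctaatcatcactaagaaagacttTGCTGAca
The TAATCC matches of Cngb1 began 58 and 25 bases before the start and that of Gngt1 began 44 bases before it. The promoter of Sag held both cores, 187 bases (NRL) and 87 bases (CRX) before the start. In Pde6b the NRL core lay 8 bases before the start.

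Counts on genes ranged from 23280767 to 38160436 in batch 1 and from 15512212 (D3) to 33201451 in batch 2. Log2 CPM correlated between libraries of batch 1 with r of 0.985 to 0.991 across genes and between H2 and H3 with 0.989, whereas D3 correlated with each of the other 5 with 0.963 to 0.969. D3 was also low in GC-rich genes: over the third of genes highest in GC its mean deviation was -0.17 on the log2 scale, against -0.01 to 0.07 in the other libraries. Calls are therefore also given without D3, where 88 genes were called in all. With treatment in the fit, only H2 and H3 against H1 then bear on the batch, and the lone H1 is assumed to vary like the other libraries. Among markers of neighbouring tissues, the summed CPM of 12 pigment epithelium genes was 241 to 819 in batch 1 and 198 to 682 in batch 2, highest in D1 and D3. The 5 red blood cell genes summed to 13.2 to 34.2 in batch 1 and to 31.9 to 109 in batch 2, highest in H2 and H3. The 13 lens genes summed to 37.8 in H2 and to 5.43 to 13.2 in the other libraries. Of these 3 lists, the 9 pigment epithelium and 3 blood genes in the deposited gene counts were tested, and 0 lens genes passed the filter. None was called in the main fit. Without D3, 2 of the 3 blood genes were called higher in batch 2, and 3 pigment epithelium genes were called lower without D2. In the halofantrine libraries alone, 4 pigment epithelium genes were called lower and 3 blood genes higher. Of 3 lens genes that passed the filter in those fits, 2 were called higher in the DMSO libraries alone and 3 without H3. The part of these tissues in the differences below was not tested.

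Rod transcripts were higher in batch 2. Of 11692 genes tested with treatment as a covariate (edgeR quasi-likelihood test, Benjamini-Hochberg adjusted p under 0.05), 559 were called (4.78%). Of these, 369 were higher in batch 2 (3.16% of genes tested) and 190 were lower (1.63%). These shares are the background for every list count below. All 16 genes of the rod phototransduction list were among those called higher, with log2 differences of 0.67 (Gnb1) and above. Their median log2 difference was 1.13, against -0.01 over all genes tested. Rod genes led the order by p: 20 of the 30 genes with the smallest p belonged to the lists of rod phototransduction, photoreceptor factors, outer segment or cyclic GMP and calcium. Of the 57 genes called with more than a 2-fold difference, 55 were higher in batch 2 and 21 belonged to these lists.

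**Figure D1:**
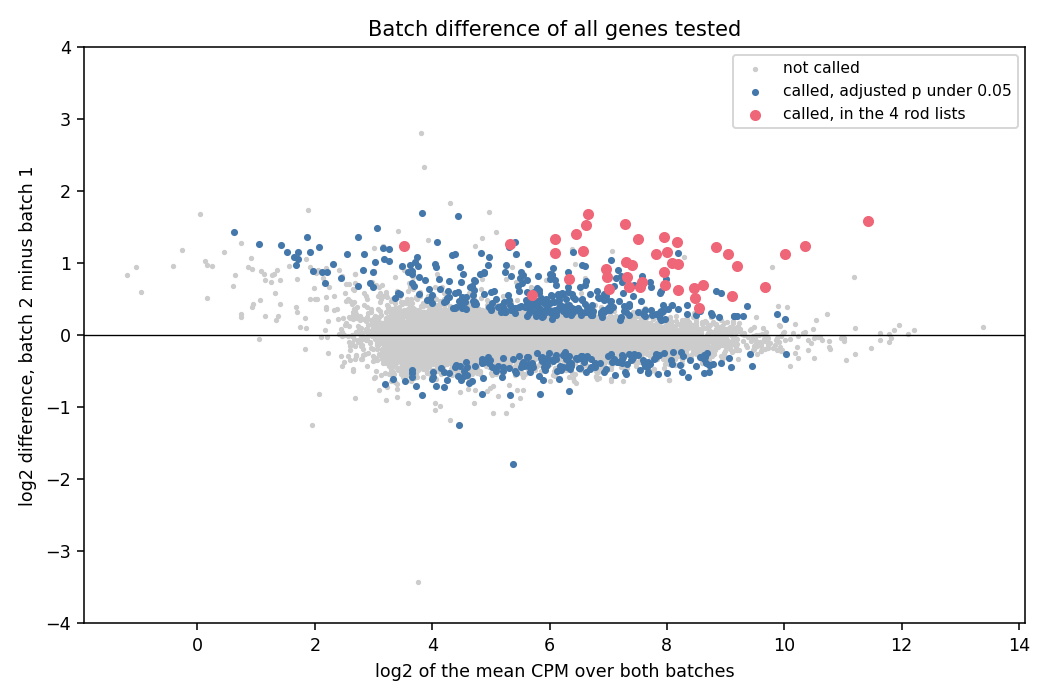
Log2 difference between batch 2 and batch 1 of each of 11692 genes, against the log2 of its mean CPM. Blue points are genes called and red points are called members of the 4 rod lists, which lie at the upper edge of the cloud.

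Gnat1, the transducin subunit of rods, was at 792, 856 and 761 CPM in D1, D2 and H1. In batch 2 it was at 1820, 1464 and 2115 CPM in H2, H3 and D3. The lowest library of batch 2 was well above the highest of batch 1, and D3 was highest of all. The means were 803 ± 48.3 and 1800 ± 326 CPM (SD, n = 3 libraries each), and the log2 difference was 1.23 (SE 0.0994, adjusted p = 0.00174 in edgeR). Pde6b, which carries the rd10 mutation and whose transcript is still made, was at 139, 164 and 131 CPM in batch 1 and at 389 (H2), 260 (H3) and 404 CPM (D3) in batch 2. Its log2 difference was 1.36 (SE 0.152, adjusted p = 0.00536 in edgeR), again without overlap between the batches. The DMSO libraries alone (D3 against D1 and D2) gave 1.37 for Gnat1 and 1.42 for Pde6b, and the halofantrine libraries alone (H2 and H3 against H1) gave 1.11 and 1.31. Both genes were thus higher in batch 2 under either treatment. In the fit without D3, which rests on the same halofantrine libraries for the batch, Gnat1 had an adjusted p of 0.0298 and Pde6b of 0.0755 in edgeR.

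The mean log2 CPM of Gnat1 and Pde6b was taken as a rod index. It was 8.37 in D1, 8.55 in D2 and 8.30 in H1, and 9.72 in H2, 9.27 in H3 and 9.85 in D3. The gap between the batches was larger than the spread within either. Within each batch every DMSO library lay above every halofantrine library, so the index and the treatment are partly confounded inside a batch.

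Other members of the cascade were also called higher. Pde6a, the catalytic partner of Pde6b, had the smallest p of the list and differed by 1.22 (SE 0.062, adjusted p = 0.000828). Cnga1, the alpha subunit of the cyclic GMP-gated channel, was at 51.6, 59.4 and 47.8 CPM in batch 1 and at 136, 119 and 174 CPM in batch 2 (H2, H3, D3), a log2 difference of 1.53. The channel's other subunit, Cngb1, differed by 0.80 and varied less inside batch 2, at 196, 197 and 212 CPM. Slc24a1, the exchanger that extrudes calcium, differed by 1.34, and Rgs9bp, which anchors the complex that switches transducin off, by 0.98. At the lower end of the list were Gnb1, a G protein beta subunit used by many cell types, at 0.67, and Cngb1.

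The rod genes did not all follow 1 order inside batch 2. D3 was the highest of the 6 libraries for 14 of the 16 genes, and H1 the lowest for 15. Gngt1, the gamma subunit of transducin, was instead highest in H2, at 179 CPM, with 161 in H3 and 150 in D3. Pdc (phosducin), which binds the transducin beta and gamma subunits, was also highest in H2, at 365 CPM, with 246 in H3 and 305 in D3. Without D3, 12 of the 16 genes were still called. Gnb1, Sag (arrestin), Pdc and Pde6b were not, although their log2 differences remained between 0.48 and 1.31. After each library's trend over GC content was removed, all 16 were called.

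**Figure D2:**
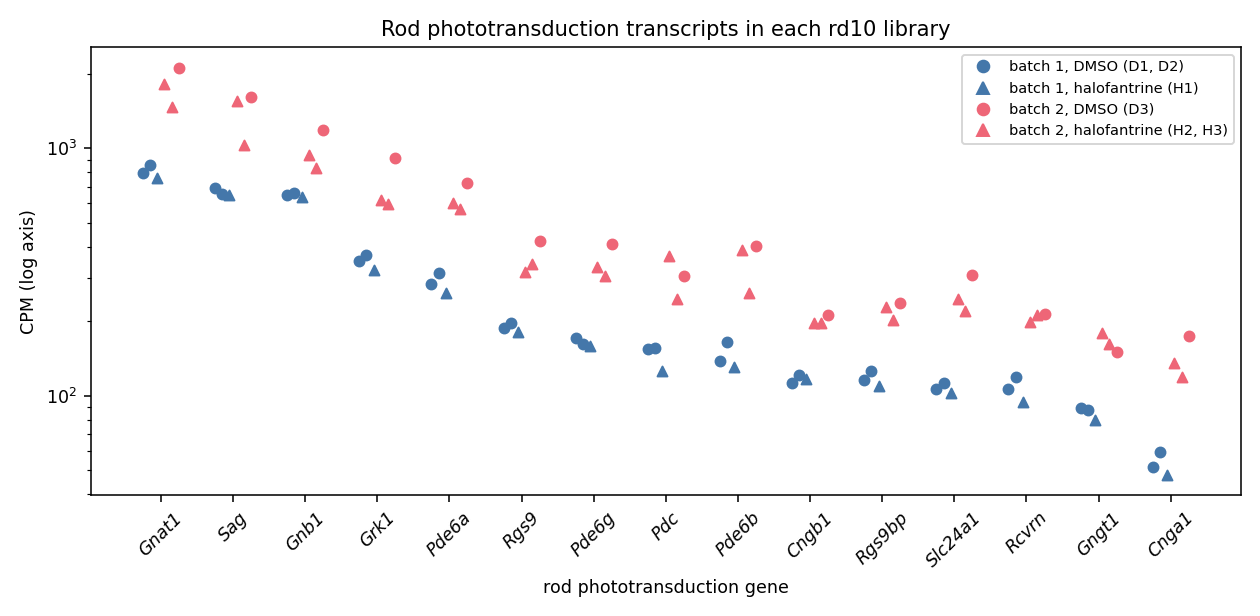
CPM of 15 rod phototransduction genes in each rd10 library, on a log axis, with batch 1 in blue, batch 2 in red, DMSO as circles and halofantrine as triangles. For all 15 genes the 3 libraries of batch 2 lie above the 3 of batch 1.

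On the scale of the WT retina, both batches had lost most of their rod transcripts. Relative to the mean of W1 to W3, with all 10 libraries scaled together, the median of the 16 genes was 8.04% in batch 1 and 16.0% in batch 2. Rgs9, which cones also express, had the largest share, 18.5% and 35.4%. Gnat1 was at 5.04% and 11.3%, and Pde6b at 4.94% and 12.0%. The 12 cone genes had medians of 102% and 122%, with a range of 33.9% to 167% in batch 1 and 52.3% to 173% in batch 2. The library labelled WT W4 is left out of this scale because its rod transcripts were at a median of 6.38% of the other WT libraries, below both rd10 batches, while its cone genes were at 104%. W4 was also near rd10 in gliosis genes. Gfap was at 933% in W4, against 1048% and 811% in batches 1 and 2. Serpina3n was at 2864%, against 3661% and 3523%. Whether the label of W4 is right was not tested. With W4 included in the WT mean, Gnat1 was at 6.65% and 14.9%.

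**Figure D3:**
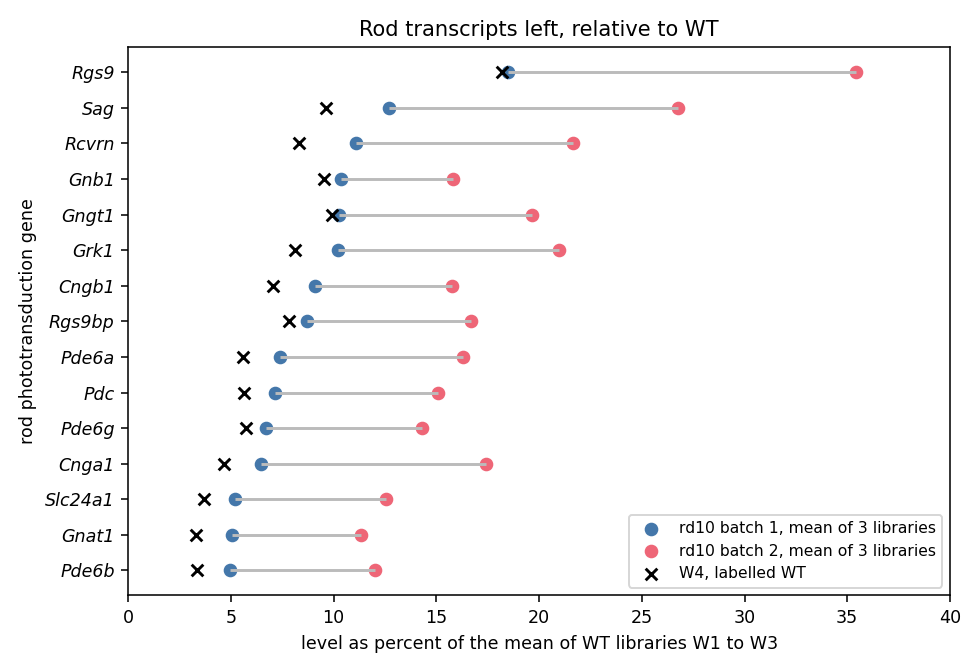
Mean level of 15 rod phototransduction genes in rd10 batch 1 (blue) and batch 2 (red), and in the library labelled WT W4 (cross), as percent of the mean of W1 to W3. The shares in batch 2 run from 11.3% (Gnat1) to 35.4% (Rgs9), and W4 lies at or below batch 1 for each gene.

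Genes that build the outer segment, the stack of membrane discs in which light is captured, were also higher in batch 2. Of 20 genes of discs, cilium and surrounding matrix, 18 were called higher and 0 lower, with a median log2 difference of 0.72. In all 20 the batches did not overlap, where 14.4% of all genes had every batch 2 library above every batch 1 library. Prph2, a tetraspanin of the disc rim, was at 408, 408 and 391 CPM in D1, D2 and H1 and at 807, 704 and 799 CPM in H2, H3 and D3. Its log2 difference was 0.96 (SE 0.0635, adjusted p = 0.0012 in edgeR). Prom1, needed for disc formation, differed by 0.89, the rod trafficking protein Reep6 by 1.17, the retinoid transporter Abca4 by 0.66 and the axonemal protein Rp1 by 1.30. Rp1 was at 537 CPM in D3 against 346 and 322 CPM in H2 and H3. The exceptions were Rbp3, the retinoid carrier of the matrix, made by rods and cones, at 0.30 (adjusted p = 0.0799), and Tulp1 at 0.42 (adjusted p = 0.0587). For both, D3 was the lowest library of batch 2, and both were called after the GC trend was removed, at 0.40 and 0.61. Without D3, 11 of the 20 genes were called.

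The enzymes that restore cyclic GMP after light, and their calcium sensors, gave 3 of 4 genes called higher, with a median of 1.00. Gucy2f, a guanylate cyclase, was at 25.8, 26.9 and 21.4 CPM in batch 1 and at 55.6, 49.5 and 62.1 CPM in H2, H3 and D3, a log2 difference of 1.27 (adjusted p = 0.00103 in edgeR). The cyclase Gucy2e differed by 0.68 and its activator Guca1a by 0.81. Guca1b was at 53.6, 49.8 and 49.3 CPM in batch 1 and at 165 (H2), 73.2 (H3) and 112 CPM (D3) in batch 2. That is a log2 difference of 1.2 that missed the threshold (adjusted p = 0.0575), with a wide spread inside batch 2. Without D3, 1 of these 4 genes was called.

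Of 11 transcription factors of photoreceptors, 6 were called higher in batch 2 and 0 lower, with a median of 0.52. Nrl, which directs the rod fate, had the smallest p of all genes, at 82.9, 85.3 and 76.2 CPM in D1, D2 and H1 and 246, 214 and 236 CPM in H2, H3 and D3. Its log2 difference was 1.54 (SE 0.0708, adjusted p = 0.000812 in edgeR). Nr2e3, which represses cone genes in rods, had the largest difference among these factors, 1.69, and rose from 49.0 ± 1.73 to 153 ± 28.1 CPM (SD, n = 3). The co-repressor Samd11 differed by 1.41. Crx, shared by rods and cones, differed by 0.52 (adjusted p = 0.00237), with 290 to 299 CPM in batch 1 and 408 to 432 CPM in batch 2. Samd7 was called at 1.33, but its batch 2 values were 56.5 (H2), 60.6 (H3) and 166 CPM (D3), and without D3 it was at 0.71 (adjusted p = 0.0712). Esrrb was called at 0.56, and without D3 it was at 0.68 (adjusted p = 0.125), with 4 of the 11 factors called in that fit. Otx2 (0.18, adjusted p = 0.075) and Neurod1 (0.23, adjusted p = 0.146), which other retinal neurons also express, did not pass the test, nor did Mef2d (0.10), Prdm1 (0.07) and Rax (-0.10).

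At the photoreceptor synapse, 2 of 11 genes were called higher and 0 lower, with a median of 0.08. They were Cabp4, a calcium-binding protein of the photoreceptor terminal, at 0.88 (adjusted p = 0.00231 in edgeR), and Egflam (pikachurin), which aligns the terminal with bipolar dendrites, at 0.58. Ribbon and active zone genes that other retinal neurons also use did not pass the test: Ctbp2 was at -0.13 and Bsn at -0.29.

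Cone genes differed less than rod genes. Of 12, 2 were called higher and 0 lower, and the median was 0.13. The exception was Opn1sw, the short-wave cone opsin, at 189, 144 and 195 CPM in D1, D2 and H1 and at 380, 467 and 376 CPM in H2, H3 and D3. The batches did not overlap, and the log2 difference was 1.15 (SE 0.121, adjusted p = 0.00487 in edgeR), inside the range of the rod genes. Its highest library was H3, the library of batch 2 with the lowest rod index. Opn1mw, the middle-wave opsin, differed by 0.35 (adjusted p = 0.0397), with 178, 204 and 181 CPM in batch 1 and 231 to 248 CPM in batch 2. Without D3 neither opsin was called, at 1.12 (adjusted p = 0.0601) and 0.40 (adjusted p = 0.138). The cone transducin Gnat2 did not pass the test (0.23, adjusted p = 0.059), and neither did Cnga3, the cone channel subunit (-0.30), or Arr3, cone arrestin (0.19). Arr3 overlapped between batches, at 467 to 575 CPM in batch 1 and 512 to 737 CPM in batch 2. Without D3 the cone median was 0.24.

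**Figure D4:**
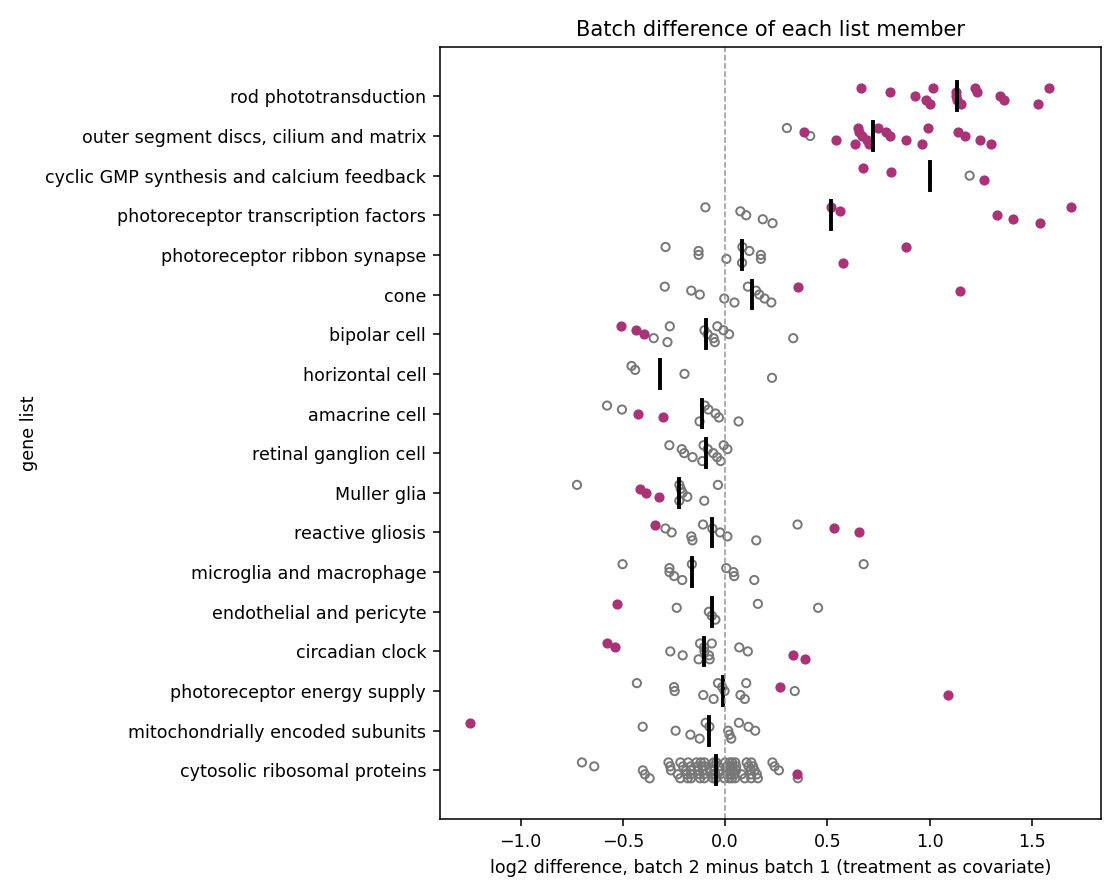
Log2 difference between batch 2 and batch 1 of each tested member of 18 gene lists. Filled points were called at an adjusted p under 0.05, open points were not, and black bars are list medians, 1.13 for rod phototransduction, 0.13 for cone and -0.22 for Muller glia.

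The inner retinal genes that were called were lower in batch 2, as were 1.63% of all genes tested. CPM is relative to all counts, here and for the glia below, so a lower value need not mean less RNA per retina. Of 14 bipolar genes 3 were called lower and 0 higher (median -0.09), and of 10 amacrine genes 2 were lower and 0 higher (median -0.11). Grm6, the glutamate receptor with which ON bipolar cells read photoreceptors, was at 449, 491 and 512 CPM in D1, D2 and H1 and at 388, 382 and 309 CPM in H2, H3 and D3. Its log2 difference was -0.51 (SE 0.0652, adjusted p = 0.00909 in edgeR), with D3 the lowest library. Pcp2, also of ON bipolar cells, was at -0.40 and Nyx (nyctalopin), which holds the receptor complex in the dendrite, at -0.43. The glycine transporter Slc6a9 of amacrine cells was at -0.30 and the amacrine factor Tfap2a at -0.43. Gpr179 (-0.28, adjusted p = 0.0629) missed the threshold. None of the 12 ganglion and 4 horizontal cell genes was called (medians -0.10 and -0.32). Without D3, 0 of the 14 bipolar and 0 of the 10 amacrine genes were called, and Nyx was at -0.23 (adjusted p = 0.174 in edgeR) and Tfap2a at -0.26 (adjusted p = 0.17). In that fit Grm6 was at -0.41, Pcp2 at -0.29 and Slc6a9 at -0.24.

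Muller glia, which span the retina and recycle transmitter and retinoids, gave 3 of 11 genes called lower and 0 higher, with a median of -0.22. Rlbp1, the retinaldehyde carrier of these cells, was at 553, 532 and 565 CPM in batch 1 and at 418, 403 and 436 CPM in H2, H3 and D3. The batches did not overlap and the log2 difference was -0.39 (SE 0.0542, adjusted p = 0.0123 in edgeR). The potassium channel Kcnj10 was at -0.33 and the transporter Abca8a at -0.42. Slc1a3, the glutamate transporter, was at -0.21 (adjusted p = 0.0572). Without D3, Rlbp1 alone was called, and Abca8a was at -0.24 (adjusted p = 0.125 in edgeR). Kcnj10 was at -0.29 in that fit.

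For reactive gliosis, by which Muller glia answer photoreceptor death, 2 of 13 genes were called higher and 1 lower, with a median of -0.06. Of the 13, 5 were above 0 and 8 below, and the list as a group was not tested. Gfap, its standard marker, was the gene called lower, at 314, 294 and 301 CPM in D1, D2 and H1 and 221, 228 and 254 CPM in H2, H3 and D3. Its log2 difference was -0.34 (SE 0.058, adjusted p = 0.024 in edgeR). Lcn2, a secreted acute-phase protein, was higher by 0.65, and Fgf2, a growth factor made by stressed photoreceptors and glia, by 0.53. Both were highest in D3, at 80.8 CPM for Lcn2 and 165 CPM for Fgf2. Fgf2 was at 109 and 111 CPM in H2 and H3, inside the 84.2 to 117 CPM of batch 1. Without D3 none of these 3 genes was called in edgeR: Gfap was at -0.42 (adjusted p = 0.0521), Lcn2 at 0.43 (adjusted p = 0.249) and Fgf2 at 0.39 (adjusted p = 0.274).

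Microglia, the immune cells that clear dying rods, gave 0 of 11 genes called, with a median of -0.16. Over all genes tested 4.78% were called, so a count of 0 in so short a list says little about microglia. Cx3cr1 was at 18.8 to 20.6 CPM in batch 1 and at 12.5 to 16.5 CPM in batch 2, a log2 difference of -0.50 (adjusted p = 0.0685 in edgeR). Csf1r was at -0.21 (adjusted p = 0.161). Of the 20 microglial genes listed, 11 were in the deposited gene counts and all 11 were tested. The 20 summed to 340 to 375 CPM in batch 1 and 327 to 342 CPM in batch 2. Complement C3, named by its size of difference, was called lower at -0.82 (adjusted p = 0.0139), with 61.4, 49.2 and 46.5 CPM in batch 1 and 22.2 (H2), 25.5 (H3) and 34.6 CPM (D3) in batch 2. Without D3, C3 was at -0.96 (adjusted p = 0.0507 in edgeR). Of 7 interferon and antigen presentation genes, Irf7 was called higher (0.99) and Oasl2 lower (-0.44). The list median was -0.15, with 6 of the 7 genes below 0. Neither was called without D3, where Irf7 was at 0.96 (adjusted p = 0.174) and Oasl2 at -0.29 (adjusted p = 0.178).

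**Figure D5:**
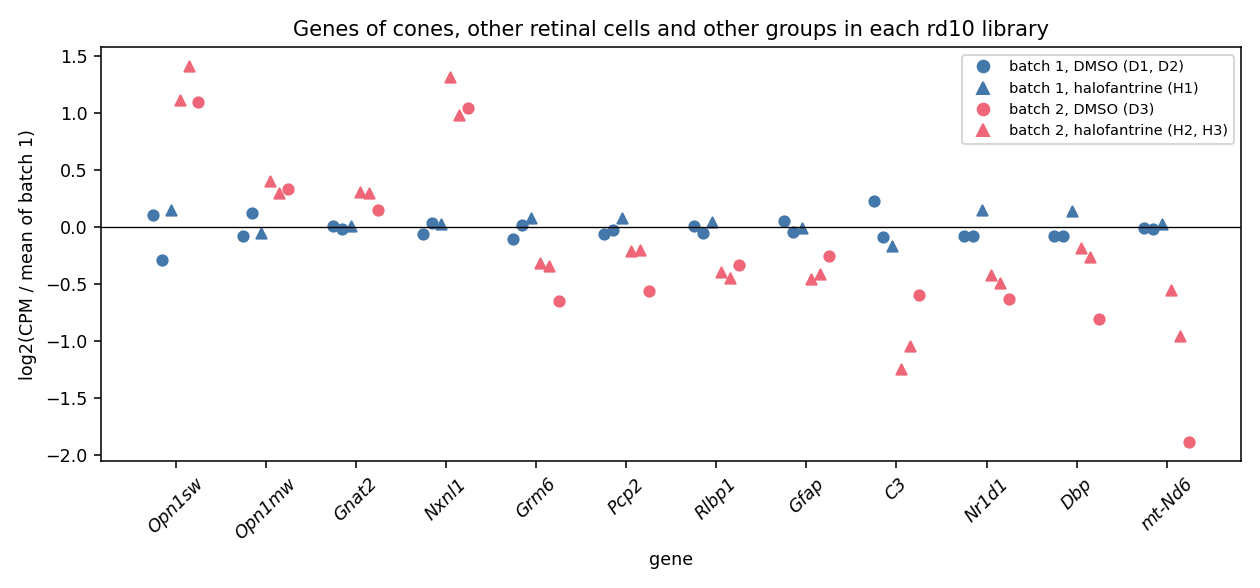
Log2 ratio of CPM to the mean of batch 1 for 12 genes, in each rd10 library (batch 1 blue, batch 2 red, DMSO circles, halofantrine triangles). Opn1sw and Nxnl1 lie above batch 1 in all 3 libraries of batch 2, whereas Grm6, Rlbp1, Gfap, C3 and Nr1d1 lie below it.

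Genes of the circadian clock differed in opposite directions: of 15, 2 were called higher and 2 lower. Nr1d1, a repressor of the clock and itself cycling, had the smallest p of all genes lower in batch 2. It was at 366, 365 and 427 CPM in D1, D2 and H1 and at 288, 275 and 250 CPM in H2, H3 and D3, a log2 difference of -0.58 (SE 0.0477, adjusted p = 0.00186 in edgeR). The clock output gene Dbp was also lower, by -0.54. Arntl, the activator that Nr1d1 represses, was higher by 0.33, and Cry1 by 0.39. The hour of collection was not given in the sources used here, and its part in these 4 genes was not tested. Without D3, Nr1d1 alone was called among the clock genes, with Dbp at -0.36, Arntl at 0.25 and Cry1 at 0.34.

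Photoreceptors depend on aerobic glycolysis. Of 14 genes of energy supply 2 were called higher and 0 lower, with a median of -0.01. Nxnl1, which encodes the rod-derived cone viability factor, was at 18.8, 20.1 and 20.0 CPM in batch 1 and 48.7, 38.8 and 40.5 CPM in H2, H3 and D3. Its log2 difference of 1.09 (adjusted p = 0.00383 in edgeR) was in the range of the rod genes. Ldha, lactate dehydrogenase A, differed by 0.27 (adjusted p = 0.0445). Of 13 mitochondrially encoded subunits, mt-Nd6 alone was called, at -1.25 (adjusted p = 0.0365), with 29.1 to 30.0 CPM in batch 1 and 20.1 (H2), 15.2 (H3) and 7.97 CPM (D3) in batch 2. Of 80 cytosolic ribosomal protein genes, 1 was called higher and 0 lower (median -0.04), where 3.16% of all genes tested were called higher and 1.63% lower. Of 7 endothelial and pericyte genes, Kdr was called lower, at -0.53. Without D3, Nxnl1 was still called, whereas mt-Nd6 was at -0.76 (adjusted p = 0.104 in edgeR), Kdr at -0.32 (adjusted p = 0.148) and Ldha at 0.22 (adjusted p = 0.243).

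Other genes called higher, named by their p or size, were less well known as rod genes. Ip6k2, an inositol hexakisphosphate kinase, was at 142, 132 and 137 CPM in D1, D2 and H1 and at 237, 242 and 247 CPM in H2, H3 and D3. Its spread within a batch was small, and its log2 difference was 0.83 (SE 0.0526, adjusted p = 0.00103 in edgeR). Ankrd33b differed by 1.04, and the kinesin Kif4 by 1.66. Kif4 was at 10.6 to 11.6 CPM in batch 1 and at 33.0 (H2), 19.0 (H3) and 45.6 CPM (D3) in batch 2, a wide spread. A pair of genes known only by identifier were among the largest differences, ENSMUSG00000144201 at 1.69 and ENSMUSG00000118515 at 1.49. Without D3, Ip6k2 and Ankrd33b were called, whereas Kif4 and both genes known by identifier were not (adjusted p = 0.155, 0.243 and 0.0859 in edgeR, with ENSMUSG00000144201 before ENSMUSG00000118515). The log2 differences of these uncalled genes were then 1.27, 1.71 and 1.37, in the same order.

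Among genes called lower, the median log2 difference was -0.40, against 0.54 among those called higher. The largest difference was that of the gene model Gm45861, at 62.0, 59.4 and 67.4 CPM in batch 1 and 22.2, 26.1 and 13.6 CPM in H2, H3 and D3. Its log2 difference was -1.78 (SE 0.152, adjusted p = 0.00226 in edgeR). Cntfr, a receptor of ciliary neurotrophic factor, was at -0.56, Padi2 at -0.44, the integrin subunit Itgb8 at -0.47, the heparan sulfatase Sulf1 at -0.49 and the Eph receptor Ephb2 at -0.46. Also named by their p were 2900026A02Rik (-0.44), Lgi4 (-0.57) and Faim2 (-0.40). After mt-Nd6, described above, the largest included Tbc1d2 (-0.82), Espn (-0.81), Metrn (-0.81), Inf2 (-0.77) and Evc (-0.72).

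The genes called lower were richer in GC than the rest, and D3 was often the extreme library in both directions. Their median GC content was 56.4%, against 49.9% over all genes tested and 48.4% in genes called higher. D3 was the lowest library for 165 of the 190 genes called lower and the highest for 295 of the 369 called higher. Without D3, 88 genes were called (74 higher, 14 lower), and 77 of these belonged to the 559. Espn was at 64.7 to 75.4 CPM in batch 1 and at 56.3 (H2), 51.3 (H3) and 28.7 CPM (D3) in batch 2, and without D3 it was at -0.49 (adjusted p = 0.0521 in edgeR). Sulf1, Ephb2, Lgi4, Faim2, Tbc1d2, Metrn and Evc were not called without D3 either. Their log2 differences in that fit were -0.40, -0.42, -0.57, -0.33, -0.60, -0.54 and -0.49, in the same order. Cntfr, Padi2, 2900026A02Rik, Itgb8, Nr1d1, Gm45861 and Inf2 were still called lower, Inf2 at -0.50. With the GC trend removed 577 genes were called, 425 of them shared with the 559.

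Which genes tracked the rods left was asked inside the batches, by the slope of each gene on the rod index with batch as a term. Of 11690 genes (Gnat1 and Pde6b, which make the index, left out), 0 were called in edgeR (0%), and the smallest adjusted p was 0.0622. At an unadjusted p under 0.05 there were 612 genes (5.24%), and DESeq2 called 10, of which 1 was a rod phototransduction gene. Of the other 14 rod phototransduction genes, 14 had a positive slope, with a median of 0.63 log2 units per unit of the index, and 10 had an unadjusted p under 0.05. Over all 11692 genes, 5917 had a positive slope and the median was 0.005. Inside each batch the DMSO libraries had the higher index, so rods left and treatment are partly confounded in these slopes. Cnga1 had a slope of 0.88 (SE 0.207) and Slc24a1 of 0.69 (SE 0.18), each with an adjusted p of 0.695. Gngt1, at 0.03 (SE 0.222), and Cngb1, at 0.15 (SE 0.141), had slopes smaller than their SE or close to it. The whole rod list as index, or treatment added to the fit, also gave 0 calls. Without H2 the fit called 895 genes, 210 with a positive slope and 8 of them rod phototransduction genes. In that fit the slope inside batch 2 rests on D3 against H3.

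Wdr17 (slope 0.64) and Lbhd1 (0.64) were among the 10 genes of smallest slope p on the positive side. A different pattern led that side: Grip2, an adaptor of glutamate receptors, was at 1875, 2167 and 1469 CPM in batch 1 and at 2911 (H2), 1019 (H3) and 4623 CPM (D3) in batch 2. Its slope was 3.43 (adjusted p = 0.0648), steeper than that of Cnga1, while its batch difference did not pass the test (0.81, adjusted p = 0.197). Gm19220 and Gm26822 were likewise lowest in H3, at 118 and 10.1 CPM, and had slopes of 3.15 and 3.01. On the negative side, Cgn had a slope of -0.77, Ltbp3 of -0.79 and Gm12918 of -1.0. Gm10925 had a slope of -9.08, which rested on 107 CPM in H3 against 0.193 CPM in D3. Opn1sw, the cone opsin called between batches, had a slope of -0.75 (SE 0.216, adjusted p = 0.695), opposite in sign to the rod genes.

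Across all 6 libraries, 190 genes (1.63%) had the exact order of the index, D3 highest, then H2, H3, D2, D1 and H1. They included 7 of the other 14 rod phototransduction genes, and 94 of the 190 were called higher in batch 2. The index falls into a separate cluster for each batch, so the likeness is given as a description with no test. By Pearson r with the index over the 6 libraries, the genes most like it were Wdr17, Lbhd1, Serinc4, Ccdc96 and Stard7, then Hmgn1, Ubxn4, Ankrd33b, Ric8b and Kcnv2. Wdr17 was at 47.7, 50.9 and 46.1 CPM in D1, D2 and H1 and at 87.6, 71.1 and 92.1 CPM in H2, H3 and D3. Its log2 difference between batches was 0.84. Lbhd1 differed by 0.88 and Kcnv2, a potassium channel subunit of photoreceptor inner segments, by 0.97. Hmgn1, a nucleosome-binding protein found in most cells, differed by 0.59.

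Whether the batch difference depended on treatment was tested by an interaction term. DMSO in batch 2 was D3 alone and halofantrine in batch 1 was H1 alone, so the spread came only from D1 with D2 and H2 with H3, and a treatment effect cannot be told apart from these 2 single libraries. Of 11692 genes 45 were called in edgeR (0.385%), 44 with a larger difference of batch 2 minus batch 1 in the halofantrine libraries, and 0 of the 45 were among the 559 called between batches. For 43 of the 45 D3 was the lowest of the 6 libraries, and their median GC content was 60.8%. Mif, a cytokine, was at 117, 117 and 131 CPM in D1, D2 and H1 and at 138, 137 and 47.5 CPM in H2, H3 and D3. No gene of the rod, outer segment, cyclic GMP, factor or cone lists was among the 45. For Gnat1 the interaction had an adjusted p of 0.498.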

How the data were processed

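Retinal RNA of 10 mice was sequenced, and the 6 rd10 libraries were analysed here. The authors made stranded libraries, pseudoaligned reads with kallisto to Ensembl 115 mouse transcripts (build GRCm39 per the labels) and used tximport, and they deposited estimated counts per gene for 11702 genes and per transcript for 275112. These were rounded. The authors' CPM values and their table of the treatment comparison (fold changes and p-values) were not used. Symbols matched 11492 identifiers.

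Genes were kept by filterByExpr, scaled by TMM and tested with the quasi-likelihood test of edgeR 4.0.16 (R 4.3.3, Benjamini-Hochberg, threshold 0.05) with treatment and batch as terms. Further fits tested the slope on the rod index (log2 CPM, prior count 2) with batch as a term, and the interaction. CPM values use TMM library sizes. SEs come from the F statistic. Pooled correlations with the index carry no p because the batches form separate clusters; 3 libraries against 3 allow an exact p no smaller than 0.1. Chi-square between libraries of a batch was 9.11 to 34.5 per gene, so none was a copy. Scripts were tested on simulated data. These values are well above counting noise, so depth alone does not set the precision. D3 was the shallowest library. Alternatives used DESeq2 1.42.0, limma 3.58.1, other scalings and filters, a GC offset (lowess span 0.3) and left-out libraries. GC content, known for 98.1% of genes, came from GENCODE M21.

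Genes were named by rule: list members in order of p (others, chosen after their values were seen, where they bound a range or depart from the list), 12 per direction by p without overlap, 8 per direction by size with at least 5 CPM, 10 per direction by slope, and 10 by likeness to the index, most of which are given. The gene lists and comparisons were chosen with earlier results of these data known. Results of some genes are not reported here.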

Additional observations from a re-analysis of the deposited data

Results flagged for a closer look

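Among the 4 libraries labelled WT, 1 lay far below the others for rod genes by Dixon's test, which flags about 1 in 20 groups by chance. Gnat1 was at 501 CPM in W4 and at 15256 ± 748 CPM (SD, n = 3) in W1 to W3. Pde6b was at 93.1 CPM in W4, against 2801 ± 88.9 CPM. The gliosis gene Gfap was at 258 CPM in W4 and at 23.1 to 34.6 CPM in W1 to W3.

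The interaction test of edgeR called 45 genes, but 2 of its 4 arms were the single libraries D3 and H1, so a dependence on treatment cannot be told apart from these libraries. The 6 with the smallest p were Gm28438 (log2 difference of the halofantrine minus that of the DMSO libraries 3.20), Gm45234 (2.14), Mif (1.37), Rpl36 (1.91), Jun (1.46) and Rplp1 (1.58), with adjusted p of 0.01 to 0.0335. Gm28438 was at 14.1 CPM in H1 and at 106 to 224 CPM in the other 5 libraries. The other 5 genes were lowest in D3, with Jun at 11.8 CPM there and 28.9 to 32.0 CPM elsewhere.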

How the results depend on the processing

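The number of genes called between batches was 559 (369 higher, 190 lower). It was 1429 (706, 723) with DESeq2, 147 (124, 23) with sample weights, 218 (174, 44) without the treatment term and 2255 (964, 1291) in the DMSO libraries alone, where D3 is the only library of batch 2 and is assumed to vary like D1 and D2. With all 10 libraries it was 0 in edgeR (0 higher, 0 lower, 673 at an unadjusted p under 0.05), with 0 of 16 rod genes called, Gnat1 at 1.24 and Pde6b at 1.37. Leaving out W4 from that fit, an alternative chosen after seeing the data, gave 1415 (836, 579) with all 16 rod genes. Leaving out each library in turn gave 88 to 2635 genes (74 to 1076 higher, 14 to 1559 lower), lowest without D3 and highest without H1, 1.24 to 1.49 for Pde6b and 0.076 to 0.24 for the cone median. Without D1, D2, H2 or H3 the count was 212 to 217. The share called higher was 66.0%, 49.4% with DESeq2 and 42.7% in the DMSO libraries alone. Arr3 reversed to -0.015 in the DMSO libraries alone and to -0.024 without H1 (-0.024 to 0.41 over libraries left out). The cause was not tested. Over these alternatives 107 genes kept direction and side of the threshold in 1473 values, were no longer called in 296, became called in 46 and reversed in 2. Other scalings, filters and limma-voom kept the count within 1.5 times.

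Slope calls were 0, and 10 with DESeq2, 3 with limma-voom, 5 with sample weights, 4 without a filter, 2 with at least 10 counts in every library, 2 with the GC trend removed and 365 without the batch term; over libraries left out they were 0 to 895, with 5 without D3. Interaction calls were 45, and 217 with DESeq2. No paired analysis was possible because the replicate numbers were given in accession order and the labels pair no libraries across batches. D3 was the shallowest library.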

Other observations

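Lipid synthesis genes were not among the lists above, and this list of 34 sterol and fatty acid synthesis genes was written after their values were seen, so it carries no test. Of 33 genes tested, 0 were called higher in batch 2 by edgeR and 6 lower, among them Scd2, Fads2, Srebf2, Fasn and Insig1, where 1.63% of all genes tested were called lower. The median log2 difference was -0.16. Scd2, a fatty acid desaturase, was at 789, 788 and 804 CPM in D1, D2 and H1 and at 647, 601 and 560 CPM in H2, H3 and D3. Srebf2, which activates sterol genes, differed by -0.54 (adjusted p = 0.0184) and Fasn, fatty acid synthase, by -0.51 (adjusted p = 0.0232), both lowest in D3. Insig1, a sterol sensor, differed by -0.32 (adjusted p = 0.0395) and was lowest in H3. Without D3 none of these 5 genes was called in edgeR: Scd2 was at -0.36 (adjusted p = 0.0793), Fads2 at -0.41 (adjusted p = 0.0619), Srebf2 at -0.38 (adjusted p = 0.104), Fasn at -0.32 (adjusted p = 0.071) and Insig1 at -0.35 (adjusted p = 0.133). Over the 33 genes D3 was the lowest library for 7.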
